A study of Mus musculus with 16 samples.

Results

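The regions described here are the THOC5 peaks that lie in exons of transcripts with no coding sequence. THOC5 belongs to the THO complex, and RNA was precipitated with it from primary mouse vascular smooth muscle cells. Members were all peaks that the deposited annotation calls non-coding, and the RefSeq transcript named with each peak gave the gene. They number 401 of 28998 peaks (1.38%) over 8 lists. They name 171 transcripts, of which 169 were found in the RefSeq gene table, for 168 genes. Of these genes, 124 code for protein and have a non-coding isoform besides, 31 were classed as long noncoding genes and 13 as transcribed pseudogenes. The 31 include Slfn10-ps, which RefSeq types as miscellaneous RNA. RefSeq places Gm5512, one of the 13, on chromosome 19, while its peak lay on chromosome 10.

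The study asked which RNAs THOC5 binds in smooth muscle cells with and without osteogenic medium. The 4 conditions had 2 precipitated samples each, and the other 8 of the 16 samples are inputs, which have no list here. Ctrl was wild-type cells in growth medium, and Pi was wild-type cells in osteogenic medium. GFP OE was cells labelled wild type that overexpressed GFP, and THOC5 OE was cells that overexpressed THOC5, both in osteogenic medium. The labels give no strain, age, sex, number of animals, dose of phosphate, vector or promoter, and they do not say whether replicates came from separate cultures, so each p measures only the spread between these samples. A list held 2572 to 4795 peaks, of a single width within a list (415 to 553 bp), and its lowest score ran from 6.31 to 29.0. The lowest score was 14.9 to 29.0 in Ctrl and Pi and 6.31 to 12.6 in the overexpression lists. Of 7 smooth muscle marker genes, 4 carried a peak of any kind, and Mylk, the myosin light chain kinase of contraction, carried one in all 8 lists. Acta2 carried one in 3 lists, Smtn in 2 and Tagln in 1, and Myh11, Cnn1 and Cald1 carried none. None of 4 endothelial or 3 leukocyte markers and 1 of 3 fibroblast markers (Pdgfra, in Pi 1) carried a peak. The share of all genes with a peak is not given beside these counts. A peak shows precipitated RNA and not a level, and in bulk cells a change in the number of cells of a type and a change in RNA per cell cannot be told apart.

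As background, THO joins the transcribing polymerase and takes part in packing RNA for export from the nucleus. Long noncoding RNAs are made, capped and mostly spliced like messenger RNAs, yet many act in the nucleus. A coding gene can also give transcripts without a usable reading frame, through a retained intron, a skipped exon or an early stop, and RefSeq lists these as non-coding isoforms. A peak in an exon shared by both kinds of isoform cannot be given to either. The annotation program places a peak by its centre, so the same stretch of RNA can be called non-coding in one list and intron in the next. For that reason overlapping peaks of all lists (1 base or more) were joined into places. There were 217 places with at least 1 non-coding peak, among 12362 in all.

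Of the 401 peaks, 11 (2.74%) overlapped a promoter window, that is 250 bases before to 50 after a RefSeq start. The share over all peaks was 2.44% (708 of 28998), which includes peaks called promoter (276 of 582, 47.4%). It was 0.945% for coding exon peaks (83 of 8786) and 1.47% for intron peaks (241 of 16386). The annotation has a promoter class of its own, which takes peaks centred at a start out of the non-coding class, so the count follows in part from the selection. The windows with at least 100 bases inside a non-coding peak, at a place found in at least 2 lists, are shown because they are where a called non-coding exon and a promoter coincide. There are 4, from RefSeq build GRCm38.p6 (mm10 coordinates), each 300 bases, 5′ to 3′ on the gene's strand, with the bases inside the peak in capitals.
Eif4g3, chr4:137993206-137993505, plus strand, peak of THOC5 OE 1 over exon 1 of 4, 133 bases inside: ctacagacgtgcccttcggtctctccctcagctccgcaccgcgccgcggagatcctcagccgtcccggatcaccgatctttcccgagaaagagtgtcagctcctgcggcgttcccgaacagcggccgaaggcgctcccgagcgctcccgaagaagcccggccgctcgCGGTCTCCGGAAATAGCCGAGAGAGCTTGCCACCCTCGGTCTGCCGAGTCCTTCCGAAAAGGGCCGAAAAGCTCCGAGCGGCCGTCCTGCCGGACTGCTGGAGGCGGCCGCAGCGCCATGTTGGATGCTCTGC
Gm46949, chr6:5153963-5154262, minus strand, peak of Pi 2 over exon 15 of 18 of Ppp1r9a, 300 bases inside: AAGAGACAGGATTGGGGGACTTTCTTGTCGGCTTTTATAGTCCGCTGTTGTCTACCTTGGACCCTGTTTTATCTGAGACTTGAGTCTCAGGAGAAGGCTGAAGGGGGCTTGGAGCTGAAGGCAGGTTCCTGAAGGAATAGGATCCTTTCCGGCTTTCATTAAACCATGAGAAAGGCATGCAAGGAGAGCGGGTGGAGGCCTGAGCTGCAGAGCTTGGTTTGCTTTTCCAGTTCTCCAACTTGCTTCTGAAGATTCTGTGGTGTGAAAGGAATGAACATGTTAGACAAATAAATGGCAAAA
Srcap, chr7:127511733-127512032, plus strand, peak of Pi 1 over the long noncoding 1700008J07Rik, 108 bases inside: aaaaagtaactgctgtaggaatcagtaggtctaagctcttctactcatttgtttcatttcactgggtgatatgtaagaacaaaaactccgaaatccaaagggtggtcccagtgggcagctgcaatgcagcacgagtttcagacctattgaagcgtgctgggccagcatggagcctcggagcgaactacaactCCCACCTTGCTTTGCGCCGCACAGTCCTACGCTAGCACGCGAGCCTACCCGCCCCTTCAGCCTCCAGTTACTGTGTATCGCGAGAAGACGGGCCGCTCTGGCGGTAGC
Ythdc1, chr5:86804016-86804315, plus strand, peak of GFP OE 2 over exon 1 of 19, 207 bases inside: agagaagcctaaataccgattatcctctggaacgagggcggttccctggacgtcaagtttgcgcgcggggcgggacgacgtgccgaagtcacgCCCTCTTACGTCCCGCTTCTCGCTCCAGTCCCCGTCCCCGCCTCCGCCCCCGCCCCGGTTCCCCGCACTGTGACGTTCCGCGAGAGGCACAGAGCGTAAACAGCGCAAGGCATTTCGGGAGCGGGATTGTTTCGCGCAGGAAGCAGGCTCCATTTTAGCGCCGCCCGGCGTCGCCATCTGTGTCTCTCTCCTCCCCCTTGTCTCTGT
Eif4g3 is a scaffold of translation initiation, and Ythdc1 encodes a nuclear reader of methylated adenosine in RNA. Both of their windows are rich in G and C (67.3% and 64.0%), where the median of all 32851 windows is 52.7%. Srcap, which encodes a chromatin remodelling ATPase, had 53.3%. The window of Gm46949 lies wholly inside the Ppp1r9a peak and held 47.3%. A G and C content is a description of the window and says nothing of binding.

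Most non-coding peaks lay in isoforms of coding genes. These held 272 of the 401 peaks (67.8%), long noncoding genes 80 (20.0%), transcribed pseudogenes 44 (11.0%), and 5 peaks named 2 transcripts not matched to a gene. Isoforms of coding genes held between 63.6% and 74.3% of the non-coding peaks of every list. The number of non-coding peaks was 35 and 81 for Ctrl, 42 and 56 for Pi, 44 and 41 for GFP OE and 54 and 48 for THOC5 OE. As a share of its list this was 1.34% and 1.69% for Ctrl, 1.58% and 1.48% for Pi, 1.19% and 1.59% for GFP OE and 1.17% and 1.13% for THOC5 OE. The exact 95% binomial interval of a single list covers counting error only. It was 1.34% to 2.10% for Ctrl 2, the list with the most peaks. For THOC5 OE 1 it was 0.88% to 1.523%, and for THOC5 OE 2 it was 0.836% to 1.498%. The ranges of Ctrl, Pi and GFP OE overlapped and both THOC5 OE lists lay below every other list. GFP OE 1 (1.19%) was only just above THOC5 OE 1 (1.17%), and the intervals of both THOC5 OE lists overlapped that of every other list.

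**Figure D1:**
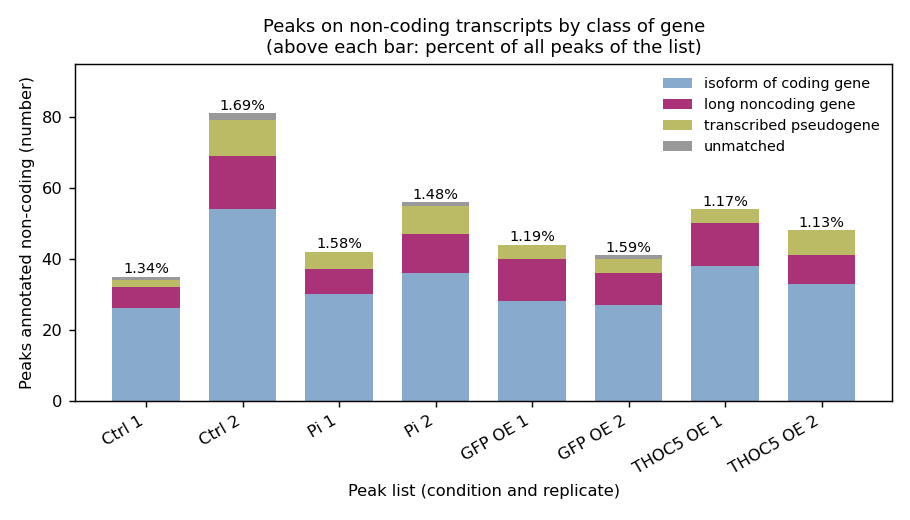
Number of peaks annotated non-coding (y) in each of the 8 lists (x), stacked by class of gene, with the percent of the list's peaks above each bar. Isoforms of coding genes make up most of every bar, the bars run from 35 to 81 peaks, and the 2 THOC5 OE lists have the lowest percentages, 1.17% and 1.13%.

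The exon that carried the peak was counted in each class, with no test. In isoforms of coding genes 175 of 272 peaks lay in the last exon, 24 in the first and 73 in between. In long noncoding genes 39 of 80 lay in the last exon (7 of them in genes of a single exon), 17 in the first of several and 24 in between. Firre, described next, gave 15 of these 24, and without Firre 36 of 61 peaks (59.0%) lay in the last exon, against 64.3% in isoforms. The annotation also has a 3′ UTR class, which can take peaks in last exons of coding isoforms, and its part in these positions was not tested. Of the 80 peaks on long noncoding genes, 49 (61.3%) lay within the span of a coding gene of another name, for 22 of the 31 genes. Among the isoforms this held for 14 of 272 peaks (5.15%). The lists give no strand of the RNA, so a peak on such a gene cannot be told apart from one on the coding gene that it overlaps.

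Firre held the highest scores of the long noncoding genes. Firre (functional intergenic repeating RNA element) is a nuclear long noncoding RNA of the X chromosome, with tandem repeats of its own, that escapes X inactivation and organises chromatin contacts. The gene spans chrX:50563120-50635321 in mm10, and its transcript NR_015505 has 20 exons. It carried 60 peaks of any annotation at 13 places, 19 of them non-coding and 41 in introns. Firre thus gave 19 of the 80 non-coding peaks on long noncoding genes (23.8%), and 19 of the 34 non-coding peaks on the X chromosome. All 11 peaks of long noncoding genes above percentile 90 of their list were in Firre. A percentile is the rank of a peak's score within its own list, so 100 is the highest peak.

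The peaks on Firre lay along the whole gene. Reads can be shared between its tandem repeats, and the placing of such reads is not stated in the labels. Of the 13 places of Firre, 4 had a peak in all 8 lists. They lie 0.372 to 0.450 kb, 8.46 to 8.55 kb, 26.8 to 26.9 kb and 54.2 to 54.6 kb from the start, measured to the centre of the peaks. The one nearest the start (chrX:50634739-50635159, exon 1) stood at percentiles 93.2 and 95.7 for Ctrl, 93.3 and 95.5 for Pi, 96.8 and 96.6 for GFP OE and 97.3 and 97.1 for THOC5 OE. Every overexpression list was above every Ctrl and Pi list there. It was called non-coding in GFP OE 1 and intron in the other 7 lists. The place at exon 15 (chrX:50580502-50580975) stood at 82.9 and 87.9 for Ctrl, 89.9 and 86.4 for Pi, 95.4 and 94.7 for GFP OE and 95.6 and 95.4 for THOC5 OE. Here too the overexpression lists lay above the other 4 without overlap. At exon 7 (chrX:50608272-50608692) the percentiles were 56.2 and 75.4 for Ctrl, 67.7 and 76.0 for Pi, 85.3 and 80.0 for GFP OE and 83.2 and 80.7 for THOC5 OE, again without overlap. The place at exon 7 was called non-coding in GFP OE 1 alone, and that at exon 15 in all lists but Pi 1 and THOC5 OE 2, the rest being intron. The share of all places whose percentiles separate in this way is not given here, so the separation does not set these places apart.

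Toward the 3′ end of Firre the presence of a peak itself differed. Exon 18 (chrX:50569588-50570008) carried a peak in both GFP OE lists, at percentiles 98.4 and 98.2, and in both THOC5 OE lists, at 98.1 and 98.1. No Ctrl or Pi list had a peak there. Of all places, 0.874% had a peak in the 4 overexpression lists and no other, and of the non-coding places 2 of 217 (0.922%) did: this one and exon 16 of Bmp1. The last exon (chrX:50563532-50564061) had a peak in both Ctrl lists (93.9 and 96.0), both GFP OE lists (97.5 and 97.6) and both THOC5 OE lists (96.8 and 97.2). Both Pi lists lacked it. In both Ctrl lists and GFP OE 1 this peak was annotated to the end of Gm35612, a neighbouring noncoding gene, so it is not counted among the 60, and which of the 2 transcripts it lies on is not known. Exons 1, 15, 18 and 20 were thus at percentiles 82.9 to 98.4 wherever a list had a peak there. The lower scores of Firre lay between them, down to 6.65 in Ctrl 2 at 37.3 kb. The lowest score of a list, which was lower in the overexpression lists, moved with this pattern, and its part in it was not tested.

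**Figure D2:**
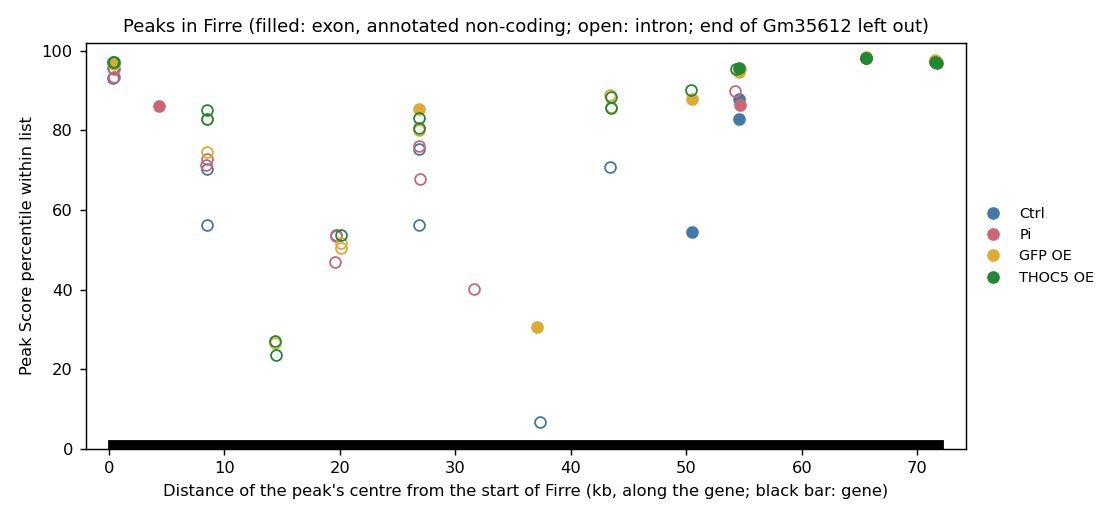
Score percentile of each peak in Firre (y, rank within its list) against the distance of its centre from the start of the gene (x, kb), coloured by condition and filled where the peak was called non-coding. Peaks in the 4 overexpression lists sit at or above 94.7 at exons 1, 15, 18 and 20, and the peaks at exon 18 are of GFP OE and THOC5 OE alone.

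The other long noncoding genes were each found in fewer lists than Firre, and none of their peaks lay above percentile 90. Of the 31 genes, 18 (58.1%) had a non-coding peak in 1 list only, and 7 had one in 4 lists or more. Gm16835 (exon 1 of 7, chr14:119098873-119099346) had a peak in 6 lists, at percentiles 23.7 and 21.9 for Pi, 44.3 and 46.6 for GFP OE, 63.9 and 62.5 for THOC5 OE, and no peak in Ctrl. The 3 conditions did not overlap there, and the place was called promoter in some of the lists. It lies within the span of Uggt2, which encodes a folding sensor of the endoplasmic reticulum. From Pi to GFP OE to THOC5 OE the lowest score of a list fell (20.5 and 14.9, 10.2 and 12.6, 6.72 and 6.31). Its part in the percentiles of Gm16835 was not tested, and how often all places show such an order is not given. The place of 4931402G19Rik (exon 3 of 5, chr2:120460298-120460771, within Ganc) had a peak in 6 lists, from 19.7 in Pi 2 to 52.2 in THOC5 OE 2. It was missing in Ctrl 1 and Pi 1. In GFP OE 2 (48.3) and THOC5 OE 2 (52.2) it was called 3′ UTR, so the gene itself was named in 4 lists, at 19.7 to 46.7.

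9530082P21Rik (exon 3 of 3, chr17:23753046-23753599, within Flywch1) had a peak in 5 lists, at 72.1 and 80.6 in Ctrl, 86.2 in Pi 1, and 78.7 and 80.7 in THOC5 OE. Neither GFP OE list had one. Zfhx2os, an antisense RNA named for the transcription factor gene Zfhx2 in which it lies, had its main place in exon 1 of 2 (chr14:55073857-55074395), at 48.7 in Ctrl 1, 65.1 in Pi 2, and 73.8 and 77.3 in THOC5 OE. GFP OE again had no peak there. Ctrl 2 had one in exon 2 (63.6). Gm36117 (exon 3 of 3, chr17:13038802-13039241) differed from these, with peaks in Ctrl 2 (44.9), both Pi lists (41.7 and 45.9) and GFP OE 1 (34.8), and none in THOC5 OE. Ctrl 1 had a peak at another place in the same exon (13.1). E130310I04Rik, chosen after its values were seen, lies within Mylk, and its place in exon 3 of 3 had peaks in Ctrl 2 (42.1), Pi 1 (21.0) and both THOC5 OE lists (26.3 and 31.7). Pi 2 had a peak at another place in that exon (28.1). Mylk carried 64 peaks over the 8 lists.

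Most of the well-known long noncoding RNAs listed were without a peak. The share of all long noncoding genes with a peak is not given here, so the counts do not set the listed ones apart. Of 51 listed ones, chosen with earlier results of these data known, 50 were in the RefSeq table, 7 had a peak of any kind and 3 a non-coding one. Beside Firre these were Ftx, a regulator of X inactivation, with a peak in exon 11 of 11 at percentile 17.5 in Ctrl 2, and Peg13, an imprinted gene within Trappc9, at 5.31 in Ctrl 2. Ftx also had a peak in intron 5 in 3 lists, at 9.85 in Ctrl 2, 21.9 in Pi 2 and 35.6 in THOC5 OE 1. The 21 listed hosts of small RNAs had no non-coding peak, and 3 of them had another kind of peak in 1 list each. Fendrr, named after its values were seen and known from the development of heart and body wall, had a peak in its last exon in Ctrl 2 (46.9). The same list had a peak in an intron of Fendrr (78.2), and no other list had one. A single list with a low score, as for exon 11 of Ftx and for Peg13, is near the limit of what these lists show.

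**Figure D3:**
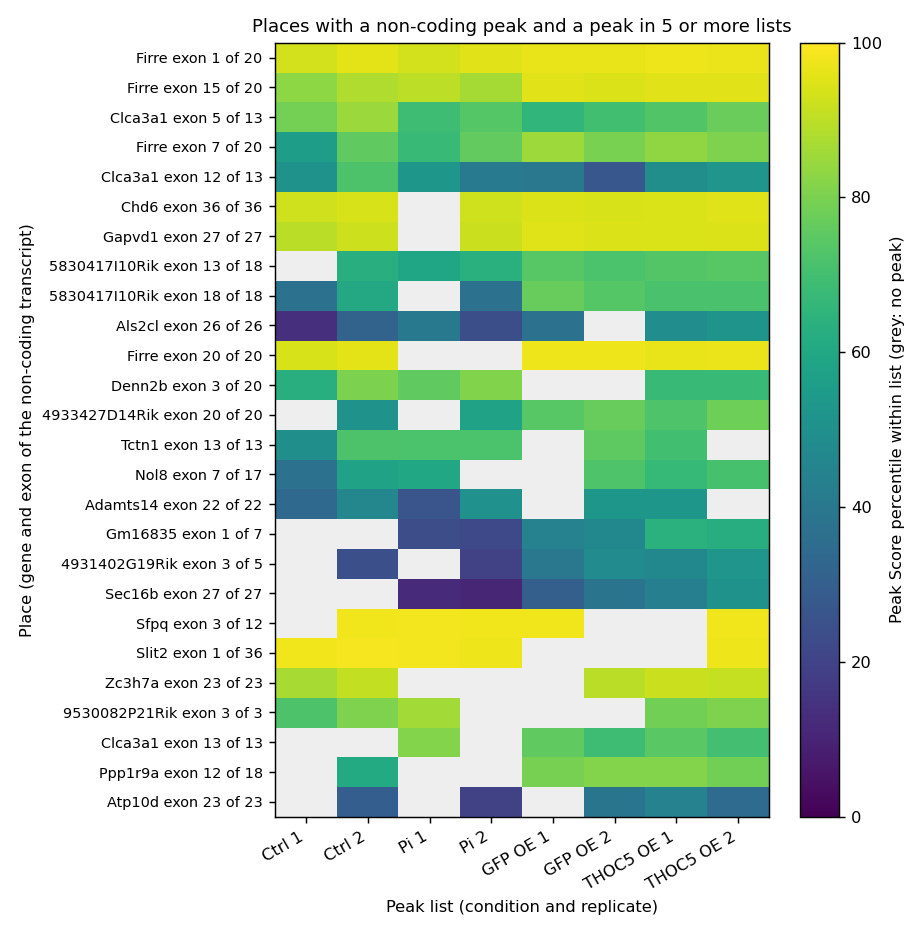
Score percentile within the list (colour, grey where a list had no peak) for the 26 places with a non-coding peak that had a peak in 5 lists or more (rows, by gene and exon) in the 8 lists (columns). Firre exons 1 and 15 are bright in all lists, and grey fields fall in Ctrl and Pi for some places and in GFP OE for others.

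Recurrence of the 217 places was close to that of all places. A peak was found in 1 list only at 117 of them (53.9%), where 49.1% of all places had a peak in 1 list only. It was found in all 8 lists at 5 (2.30%), where 2.62% of all places had one. The 5 were Firre exons 1, 7 and 15 and exons 5 and 12 of Clca3a1. Of the 100 places with a peak in 2 lists or more, 27 were called something else than non-coding in at least 1 list, with an intron peak at 22 places. By the deposited nearest gene, 200 of the 396 matched peaks (50.5%) would carry another gene's name than their transcript.

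Among isoforms of coding genes, the highest scores belonged to Bmp1, Slit2 and Sfpq. Bmp1 encodes a secreted metalloprotease that trims procollagen. Exon 16 of 20 of its isoform (chr14:70486339-70486812) carried a peak at percentiles 98.9 and 98.8 for GFP OE and 99.4 and 99.2 for THOC5 OE, and none in Ctrl or Pi. The last exon, at chr14:70474611-70475084, added peaks in GFP OE 1 (99.0) and THOC5 OE 1 (99.3). Bmp1 was not free of peaks in the other conditions: it held 44 peaks of any kind over the 8 lists, 4 or 5 in each Ctrl and Pi list and 6 or 7 in each overexpression list. In all, 3 of its places, in introns or other exons, had a peak in all 8 lists at 97.4 to 99.2.

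Slit2 encodes a secreted ligand of Robo receptors, which guides axons and migrating cells. Exon 1 of 36 of its non-coding isoform held a peak at chr5:47984465-47984880 in both Ctrl lists (97.8 and 98.6), both Pi lists (98.3 and 97.6) and THOC5 OE 2 (97.4). In GFP OE 2 (95.6) and THOC5 OE 1 (95.9) the peak lay in the same exon at a second place nearer the start, with no overlap of the first. Counted by gene, Slit2 thus had a non-coding peak in 7 lists, and counted by place it was one of those missing in GFP OE. Sfpq, a splicing factor of nuclear paraspeckles and named after its values were seen, had its place in exon 3 of 12 (chr4:127023030-127023583) in 5 lists, at 97.7 to 98.2. It was called non-coding in Pi 1 and THOC5 OE 2 and intron in the other 3.

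A pair of last exons recurred in 7 lists with high scores. Gapvd1, which encodes an exchange factor for a small GTPase of endocytosis, had a peak in exon 27 of 27 (chr2:34677407-34677827) at 89.7 and 92.5 in Ctrl, 92.1 in Pi 2, 95.3 and 94.8 for GFP OE and 94.2 and 94.8 for THOC5 OE. Every overexpression list stood above every Ctrl and Pi list there, and Pi 1 had no peak. How many of all places separate so is not given. The lowest score of a list was lower in the overexpression lists, and its part here was not tested. Chd6, a chromatin remodeller, had one in exon 36 of 36 (chr2:160948826-160949246) at 92.9 and 94.0 in Ctrl, 92.8 in Pi 2, 94.6 and 93.9 for GFP OE and 94.4 and 95.1 for THOC5 OE. It too was missing in Pi 1, and its groups overlapped. Of its 7 peaks, 4 were called non-coding and the rest coding exon.

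Other recurrent isoforms ranked in the middle of their lists. Clca3a1, of a family that regulates chloride channels, had peaks in all 8 lists at exon 5 of 13 (65.9 to 85.1) and at exon 12 (27.1 to 72.1). The first was called intron in all but the GFP OE lists, and the second in Ctrl 1 and both Pi lists. Exon 13 held a peak in Pi 1 (81.3), both GFP OE lists (75.5 and 69.1) and both THOC5 OE lists (74.3 and 70.0). Als2cl was found in exon 26 of 26 in 7 lists, from 13.8 in Ctrl 1 to 51.7 in THOC5 OE 2. Denn2b, an exchange factor for Rab proteins, was found in exon 3 of 20 (chr7:109556427-109556866) at 63.0 and 80.3 in Ctrl, 75.7 and 81.0 in Pi, and 67.4 and 67.5 in THOC5 OE. Both GFP OE lists lacked it. Places in 6 lists were also found in 4933427D14Rik (51.0 to 77.9), Tctn1, a protein of the ciliary transition zone (49.7 to 75.4), Nol8, a nucleolar protein (37.9 to 72.3), and Adamts14, a procollagen protease (26.5 to 53.1). Nol8 had 10 non-coding peaks in all, at 4 places.

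Runx2 encodes the transcription factor that directs bone cell fate and is raised in calcifying smooth muscle. Its peak lay in exon 1 of 6 of the isoform NR_073425 (chr17:44735554-44735993). It was found in both Pi lists, at percentiles 41.7 and 47.9, and in GFP OE 2, at 39.3. Both Ctrl lists, GFP OE 1 and both THOC5 OE lists had no peak in Runx2 of any kind. No other of the 8 listed osteochondrogenic genes had a peak, and the share of all genes with one is not given here.

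The only gene with a non-coding peak in all 8 lists was 5830417I10Rik, a transcribed pseudogene at chr3:88777057-88829371, with 18 such peaks at 3 places. Exon 13 of 18 had a peak in 7 lists, all but Ctrl 1, at 58.9 to 74.1. Exon 18 had one in 7 lists, all but Pi 1, at 37.3 to 76.8. Exon 15 (chr3:88820168-88820607) had one in Ctrl (43.4 and 65.4) and Pi (62.5 and 68.8) and in neither overexpression condition. It was the 1 non-coding place of 217 (0.461%) with a peak in the 4 Ctrl and Pi lists and no other, as had 0.283% of all places. The pseudogenes Atp10d (5 lists, 19.7 to 44.3) and BC021767 (4 lists, 1.60 to 26.5) ranked lower. A processed or duplicated pseudogene can share reads with its parent gene, and the placing of such reads is not stated in the labels.

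Against growth medium, the lists of osteogenic medium lacked a few non-coding places and held a few others. A peak shared by the Ctrl lists and missing from the Pi lists was found at 10 of 163 places (6.13%), where 4.67% of all places showed this. The strongest were the place at Firre exon 20 and the end of Gm35612 (93.9 and 96.0), Flcn exon 13 of 13 (91.5 and 93.8), Crebzf exon 1 of 4 (89.0 and 94.1), Zc3h7a exon 23 of 23 (87.1 and 90.7), Mllt10 exon 23 of 23 (65.6 and 74.1) and Vps39 exon 26 of 26 (60.3 and 73.6). Flcn encodes folliculin, a regulator of nutrient signalling, and Crebzf a leucine zipper protein. Mllt10 encodes a cofactor of a histone methyltransferase, and Vps39 a subunit of a vesicle tethering complex. Flcn, Crebzf, Mllt10 and Vps39 had a peak at that place in no other list, while Firre and Zc3h7a had it again in overexpression lists. The opposite pattern, peaks shared by the Pi lists and missing from Ctrl, was found at 6 of 163 places (3.68%), against 2.59% of all places.

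The 6 were Slc9a8 exon 14 of 14 (75.2 and 77.7), Runx2 exon 1 (41.7 and 47.9), Gm16835 exon 1 (23.7 and 21.9), Pfkfb4 exon 14 of 14 (15.0 and 17.4), Bmf exon 2 of 2 (12.0 and 19.7) and Sec16b exon 27 of 27 (12.0 and 10.9). Slc9a8 is a sodium and proton exchanger, Pfkfb4 an enzyme that sets the pace of glycolysis, and Bmf a protein that promotes cell death. Sec16b acts at the exit sites of the endoplasmic reticulum. Of the 6, Slc9a8 alone lay in the upper part of both Pi lists. The places of Gm16835 and Sec16b, 2 of 217 (0.922%), had a peak in all 6 lists of osteogenic medium and in no list of growth medium, as had 0.178% of all places. Elsewhere in Sec16b, Ctrl 2 had 1 peak, not called non-coding. For Sec16b the percentiles were 30.3 and 38.5 for GFP OE and 43.2 and 51.1 for THOC5 OE, so each condition lay above the one before it without overlap. The lowest score of a list fell from Pi to GFP OE to THOC5 OE, and its part in this order was not tested. How often all places show the order is not given. With 2 lists a side none of the places named here can be tested singly.

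By the labels, GFP OE differed from Pi in the overexpression of GFP. The labels name no vector, so GFP and its delivery into the cells cannot be told apart. A peak shared by the GFP OE lists and missing from both Pi lists was found at 7 of 139 places (5.04%), where 5.13% of all places did. The strongest were Bmp1 exon 16 (98.9 and 98.8), Firre exon 18 (98.4 and 98.2), Firre exon 20 (97.5 and 97.6), Ppp1r9a exon 12 of 18 (79.7 and 81.5), Slc8a1 exon 2 of 9 (70.2 and 70.2) and D130020L05Rik exon 1 of 2 (50.9 and 55.1). Ppp1r9a encodes neurabin, an actin binding protein, and Slc8a1 the sodium and calcium exchanger. The first 4 were also found in both THOC5 OE lists, and the last 2 in no other list. The reverse was found at 6 of 139 places (4.32%), against 3.93% of all places. It held for Slit2 exon 1 (98.3 and 97.6 in Pi), Capn15 exon 11 of 11 (84.9 and 83.0), Denn2b exon 3 (75.7 and 81.0), Slc9a8 exon 14 (75.2 and 77.7), 5830417I10Rik exon 15 (62.5 and 68.8) and Bmf exon 2 (12.0 and 19.7). Capn15 encodes a calpain protease. Pi and GFP OE also differed in the lowest score of their lists, as above, and its part in these counts was not tested.

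THOC5 OE against GFP OE gave the largest number on one side. A peak shared by the THOC5 OE lists and missing from GFP OE was found at 12 of 115 places (10.4%), where 8.21% of all places did. The strongest were Rbm5 exon 24 of 24 (chr9:107740484-107740957) at 95.7 and 95.5, Ankrd27 exon 29 of 29 at 81.2 and 84.1, and 9530082P21Rik at 78.7 and 80.7. The place at Gm12992 exon 5 of 5 (77.1 and 82.9), Ube3b exon 28 of 28 (75.6 and 75.5) and Zfhx2os (73.8 and 77.3) followed. At the place of Gm12992, within Srsf4, both THOC5 OE peaks were called coding exon, and only the peak of Pi 2 (82.3) was called non-coding. Rbm5 encodes a regulator of splicing, Ankrd27 a protein of endosome traffic and Ube3b a ubiquitin ligase. Rbm5 and Ankrd27 had a peak there in no other list, while the other 4 had one in Ctrl or Pi lists as well. The reverse was found at 2 of 115 places (1.74%), against 1.39% of all places, and these were Slc8a1 and D130020L05Rik. The THOC5 OE lists were longer (4618 and 4240 peaks) than the GFP OE lists (3711 and 2572).

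**Figure D4:**
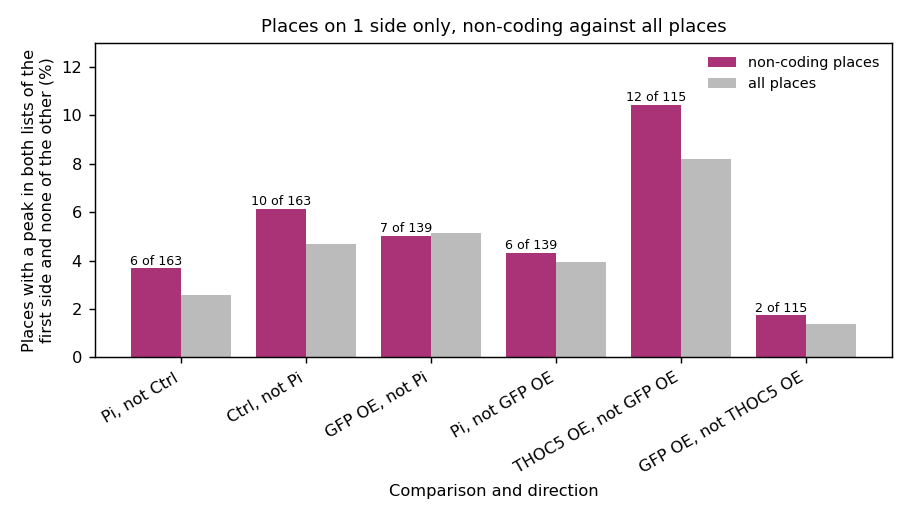
Percent of places (y) with a peak in both lists of the first condition and no list of the second, for 3 comparisons in both directions (x), in non-coding places (with counts) and in all places. The widest gap is 10.4% against 8.21% (THOC5 OE, not GFP OE), and for GFP OE, not Pi the 2 bars stand at 5.04% and 5.13%.

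The share of non-coding peaks in a list did not differ past the threshold between conditions. The means were 1.52% ± 0.244 for Ctrl, 1.53% ± 0.0700 for Pi, 1.39% ± 0.289 for GFP OE and 1.15% ± 0.0263 for THOC5 OE (SD, n = 2 each). An exact permutation test over the 4 conditions gave p = 0.305 (adjusted p = 0.667 over 4 tests). Pi was 0.00897 percentage points above Ctrl (exact permutation, two-sided, p = 1), GFP OE was lower than Pi, with a difference of -0.136 (p = 1), and THOC5 OE lower than GFP OE, with a difference of -0.239 (p = 0.333). With 2 lists against 2, the smallest p that this test allows is 0.333. The higher of the GFP OE lists lay above both Pi lists and the lower one below both.

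Non-coding peaks ranked lower than coding exon peaks in 6 of the 8 lists. Their median percentile was 54.3 and 46.9 for Ctrl, 41.7 and 37.3 for Pi, 44.4 and 53.1 for GFP OE and 67.2 and 66.1 for THOC5 OE. Coding exon peaks had medians of 61.2 to 66.7 and intron peaks of 42.8 to 45.9, a smaller spread between lists. The spreads are not alike in kind, since a non-coding median rests on 35 to 81 peaks of a list. Coding exons and introns held 8786 and 16386 of all 28998 peaks, and the part of class size in these spreads was not tested. The mean difference from coding exons was -12.5 percentiles (exact sign-flip permutation over 8 lists, two-sided, p = 0.0312, adjusted p = 0.0938 over 3 tests), which does not pass 0.05 after adjustment. The 2 lists in which non-coding peaks ranked higher than coding exons were both THOC5 OE, by 2.12 and 0.124 percentiles. Against introns non-coding peaks ranked 6.76 percentiles higher on average, in 6 of 8 lists (exact sign-flip permutation p = 0.156, adjusted p = 0.234). The 2 exceptions were both Pi, at -3.81 and -8.65, and the THOC5 OE lists showed the widest gaps, 22.2 and 21.9. That the THOC5 OE lists had the highest non-coding medians and the Pi lists the lowest was seen after the values were known and was given no test.

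**Figure D5:**
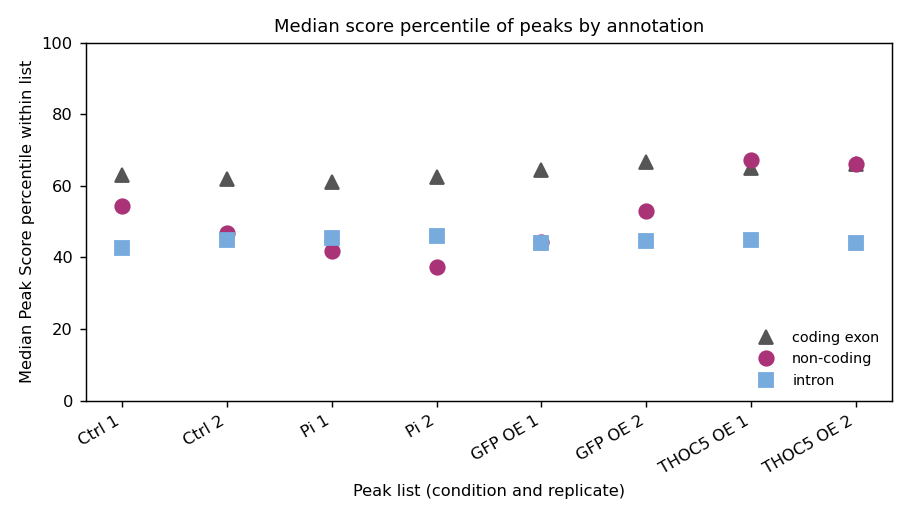
Median score percentile (y, rank within the list) of peaks in coding exons, non-coding exons and introns for each of the 8 lists (x). Coding exon and intron medians are nearly level across lists, while the non-coding median runs from 37.3 in Pi 2 to 67.2 in THOC5 OE 1. The non-coding median rests on far fewer peaks, 35 to 81 of a list.

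Long noncoding genes and isoforms of coding genes were not told apart by rank. The median of long noncoding genes was 63.2 and 46.9 for Ctrl, 41.7 and 32.9 for Pi, 47.6 and 51.4 for GFP OE and 56.6 and 71.0 for THOC5 OE. For isoforms it was 56.7 and 50.7 for Ctrl, 43.6 and 45.3 for Pi, 39.0 and 69.1 for GFP OE and 67.6 and 62.0 for THOC5 OE. The mean difference was -2.83 percentiles, with long noncoding genes higher in 3 of 8 lists (exact sign-flip permutation, p = 0.461, adjusted p = 0.461). Above percentile 90 of their list lay 47 of 401 peaks (11.7%), from 12 genes. The same share was 19.1% for coding exon peaks and 4.79% for intron peaks, and 2907 of all 28998 peaks lay there by the construction of the percentile. Of these genes, 10 code for protein, and the others are Firre and the pseudogene Gm14853, with 2 peaks.

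Lists of 1 condition shared more non-coding places on average than lists of different conditions, though not in every pair. The Jaccard index, the share of the joint places found in both lists, was 0.430 for the THOC5 OE pair (37 of 86 places), 0.284 for GFP OE (21 of 74), 0.239 for Ctrl (26 of 109) and 0.226 for Pi (21 of 93). The mean within conditions was 0.295 and between conditions 0.221, a difference of 0.0732 (exact permutation over every way to pair the 8 lists, p = 0.00952, the smallest that they can give). Over all places the same difference was 0.0479 (exact permutation p = 0.0667). The result rests on THOC5 OE: without its first list the difference was 0.0400 (exact permutation p = 0.0571), and without its second 0.0380 (p = 0.295). The index between a GFP OE and a THOC5 OE list was 0.286 to 0.370, above that of the GFP OE pair. By this index Ctrl 2 shared more with THOC5 OE 1 (0.250) and THOC5 OE 2 (0.277) than with Ctrl 1. The index also depends on the number of places, which was 43 in Ctrl 1 and 92 in Ctrl 2. Ctrl 2 held 26 of the 43 places of Ctrl 1, 31 of the 63 of THOC5 OE 1 and 33 of the 60 of THOC5 OE 2. As a share of the shorter list, that of Ctrl 1 was thus the largest.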

How the data were processed

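RNA precipitated with THOC5 was measured in 8 of 16 samples, 2 per condition, and the inputs have no list. Per the submitters' processing notes, Bowtie2, MACS2, SAMtools and FastQC were used with mm10, without versions or roles. The headers of the lists show that HOMER's annotatePeaks.pl placed each peak on mm10 transcripts. Each peak has a score from the authors' caller, kept in the deposited lists, with no scale stated. Only its order within a list was used (percentile, 100 times rank over peaks). The headers' condition and number joined lists to samples. No depth of the libraries was read, so precision rests on the number of peaks and of lists.

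Genes came from the transcript named in the annotation and a RefSeq table (GRCm38.p6), classed by biotype. Peaks sharing 1 base or more were joined into places. Shares were compared by exact permutation, percentiles by exact sign flips over 8 lists and sharing by all pairings of the lists, with Benjamini-Hochberg adjustment within a family at 0.05. The members, gene lists and tests were chosen with earlier results of these data known. Named were Firre and Runx2, the up to 10 most recurrent places of long noncoding genes and of isoforms, up to 6 places per comparison and direction, listed long noncoding RNAs with a member, and the 3 genes with most peaks. Alternatives are given in the closing section. Python 3.11.15, pandas 2.3.3, NumPy 2.4.6, SciPy 1.17.1 and matplotlib 3.10.9 were used, and the functions were tested on simulated lists.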

Additional observations from a re-analysis of the deposited data

How the results depend on the processing

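The test of the share over the 4 conditions did not pass 0.05 under any setting run. The 3 tests between 2 conditions cannot go below a p of 0.333 and had no p without 1 list, so they say nothing of stability. Leaving out a list gave 0.105 to 0.240 for the 4 conditions (between-condition sum of squares), -0.163 to 0.181 for Pi minus Ctrl, -0.340 to 0.0682 for GFP OE minus Pi and -0.443 to -0.0350 for THOC5 OE minus GFP OE. With the upper part of each list by score (at or above its median) Pi minus Ctrl turned to -0.310 and GFP OE minus Pi to 0.161 percentage points, and with lists cut to 2572 peaks Pi minus Ctrl was -0.0389 and THOC5 OE minus GFP OE was 0. The percentile difference from coding exons was -14.6 to -10.7 without 1 list, with a p of 0.0625 without any one list of Ctrl, Pi or GFP OE. It was -6.51 with mean percentiles (exact sign-flip permutation p = 0.00781), -13.7 with cut lists (p = 0.00781), -12.4 in the upper part (p = 0.0156) and -14.4 with the best peak per gene (p = 0.00781), all before adjustment. That from introns passed 0.05 before adjustment with mean percentiles (6.53, p = 0.0469 by exact sign-flip permutation) and in the upper part of the lists (11.5, p = 0.00781), and was 4.55 to 8.96 without 1 list. The difference of long noncoding genes and isoforms turned to 0.170 with means, 0.145 with cut lists and 9.54 in the upper part, and was -4.53 to -0.712 without 1 list. Without the Firre peaks, chosen after seeing the data, it was -8.58 (exact sign-flip permutation p = 0.0859). The likeness difference was 0.0380 to 0.0969 without 1 list, also chosen after seeing the data. The count for Pi not Ctrl fell to 3 with an overlap of 50% of both peaks, 3 with cut lists and 1 in the upper part. With 1 list left on a side the counts, in the order Pi not Ctrl, Ctrl not Pi, GFP OE not Pi, Pi not GFP OE, THOC5 OE not GFP OE and GFP OE not THOC5 OE, were 6 to 34, 12 to 57, 8 to 28, 9 to 42, 15 to 29 and 2 to 16. The cause of these changes was not tested, except that fewer lists a side ask less of a place.

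The labels do not say that replicate numbers pair the samples, and lists of different conditions shared as much with the same number (mean Jaccard 0.224 over 12 pairs) as with the other number (0.219). With the replicate block the likeness kept its call (exact permutation p = 0.0417, difference 0.0732), and the test of the share over conditions gave p = 0.375, so neither call changed. The percentile differences had a value but no p under the block, and the counts of places were not run with it.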
